A study of Mus musculus with 16 samples.

Results

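The genes described here are 8 members of the acyl-CoA thioesterase family, Acot1, Acot2, Acot3, Acot4, Acot7, Acot8, Acot12 and Acot13. They were chosen by symbol, with earlier results of these data known, and all 8 were found among the 46078 genes of the liver count table. The series compared the livers of C57BL/6 mice, 22 weeks old, in which a fattening diet had led to obesity and to hepatic steatosis before treatment, in the saline mice as in the others. Liver fat at the end of treatment is not in the tables used here. Dicretin, a peptide that activates the receptor of glucagon-like peptide-1 (GLP1R) as well as the glucagon receptor (GCGR), was given to 4 of the mice analysed. Semaglutide, which activates GLP1R alone, was given to 4 others. A further 4 mice lost an equivalent weight by calorie restriction, and the last 4 received saline as the vehicle. The authors chose these 4 livers from each group for sequencing. Each liver gave 1 library, and libraries are called by group and by the number in their label. Dose, length of treatment and sex are not in the labels used here.

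Acyl-CoA thioesterases cut the thioester bond of an acyl-CoA and release a free fatty acid and coenzyme A. They work against the acyl-CoA synthetases, and because each member sits in a given compartment they set how much acyl-CoA and free coenzyme A is present in the cytosol, the mitochondria and the peroxisomes. In rodent liver several members are known targets of PPAR alpha, the nuclear receptor that is active in fasting. The protein products of Acot1, Acot2, Acot3 and Acot4 share an alpha/beta-hydrolase fold, whereas those of Acot7, Acot12 and Acot13 have the unrelated hotdog fold, as does that of Acot8.

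Library totals ran from 12.144 to 18.755 M counts, and 12910 genes passed the filter on low counts, among them all 8 members. The TMM factor, which scales each library, was the lowest of the 16 in Semaglutide 11 (0.8525), followed by 0.9435 in Dicretin 64. It was the highest in Dicretin 14 (1.1217), close to 1.0886 in saline 35. The calls of members are also given without Semaglutide 11 and Dicretin 14 where that changed the call. Hepatocyte markers were high in every library, with a sum of 10 markers of 87100 to 103000 CPM, counts scaled to the library total, in Dicretin, 132000 to 159000 in Semaglutide, 141000 to 159000 in calorie restriction and 108000 to 131000 in saline. Of these 10 markers, 3 were higher and 2 lower in Dicretin than in saline, none passed in Semaglutide, and 2 were higher in calorie restriction. Kupffer cell and macrophage markers summed to 275 to 773 CPM in Dicretin, 144 to 543 in Semaglutide, 100 to 356 in calorie restriction and 294 to 473 in saline, and of the 11 genes none passed in Dicretin or Semaglutide and 2 were lower in calorie restriction. Adipocyte markers (6 genes, of which 2 were tested) summed to 9 to 17.6 CPM in Dicretin, 6.22 to 14.6 in Semaglutide, 8.23 to 16.2 in calorie restriction and 27.6 to 59.9 in saline, with 1 of the 2 lower in each group than in saline. With Dicretin, 1 of 8 endothelial markers was higher, and 2 of 9 stellate cell and 1 of 5 cholangiocyte markers were lower; none of these passed with the other treatments. Lymphocyte markers summed to at most 8.44 CPM and neutrophil markers to at most 3.55 CPM in any library, with no counts for Ly6g. In whole liver, fewer cells of a type and less RNA per cell cannot be told apart, and the part of these markers in the results on the thioesterases was not tested.

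The 4 clustered members lie side by side. In GENCODE M21 on GRCm38 (mm10), Acot2 (ENSMUSG00000021226) spans chr12:83987861-83993873, Acot1 (ENSMUSG00000072949) chr12:84009490-84018371, Acot4 (ENSMUSG00000052392) chr12:84038379-84048601 and Acot3 (ENSMUSG00000021228) chr12:84052144-84060402, all on the plus strand and within 72.5 kb. The other members are scattered. Acot7 (ENSMUSG00000028937) is at chr4:152178134-152271855 on the plus strand, Acot8 (ENSMUSG00000017307) at chr2:164792765-164804882 on the minus strand, Acot12 (ENSMUSG00000021620) at chr13:91741512-91786148 on the plus strand and Acot13 (ENSMUSG00000006717) at chr13:24817948-24831540 on the minus strand. All 8 are protein-coding genes, and the counts are sums over their exons.

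The clustered genes are close copies of each other, which bears on how far their counts can be kept apart. The coding sequences of Acot1 and Acot2 were identical at 1181 of 1236 aligned bases (95.6%), against 76.0% to 84.5% for the other pairs of the cluster. The following 120 bases are the start of the longest stretch of that alignment without a gap. They differ at a larger share of bases than the whole alignment does. They come from GRCm38 through the GENCODE M21 coding annotation, run 5′ to 3′ on the plus strand, and begin at coding position 5 of Acot1 (chr12:84009514-84009633) and at coding position 128 of Acot2 (chr12:83988029-83988148). Capitals mark the 10 bases that differ.
Acot1: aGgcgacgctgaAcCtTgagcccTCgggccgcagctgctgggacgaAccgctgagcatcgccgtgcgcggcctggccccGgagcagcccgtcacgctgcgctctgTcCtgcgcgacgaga
Acot2: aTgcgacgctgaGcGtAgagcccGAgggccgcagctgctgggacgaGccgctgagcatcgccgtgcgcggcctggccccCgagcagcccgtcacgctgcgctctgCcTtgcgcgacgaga

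Of all stretches of 50 bases in the transcripts, 27.71% in Acot2, 19.17% in Acot1, 19.12% in Acot3 and 4.53% in Acot4 also occur in another gene. The genes with the most shared stretches are Acot1, Acot4 and Acot5 for Acot2, and Acot2, Acot5 and Acot3 for Acot1. For Acot3 they are Gm49366, Acot5 and Acot1, and for Acot4 they are Acot6, Acot5 and Acot3. Genes that share fewer stretches with a member are not listed. Acot7, Acot8, Acot12 and Acot13 share none (0%). The counts of the 4 clustered members are therefore uncertain to the extent that reads from shared stretches were assigned to a neighbour or left out. The protein-coding gene Gm49366 overlaps 396 exon bases of Acot3 and 33 of Acot4 on the same strand. It is not in the count table, and strand cannot part its reads from theirs. The antisense gene 4732463B04Rik overlaps 615 exon bases of Acot4 and 312 of Acot3, but held 351 counts over the 16 libraries, against 7625 for Acot4 and 14006 for Acot3. Snx21 overlaps 246 exon bases of Acot8 from the opposite strand and held 1958 counts, against 2886 for Acot8, and 4833422C13Rik overlaps 149 exon bases of Acot12 with 210 counts, against 33316. The strand setting of the counting is not given in the sources used here, so reads in the overlaps of opposite strands cannot be told apart either.

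The upstream sequences of the 4 neighbours are shown because their levels, given further on, did not move together. Each is the 180 bases before the gene's start, 5′ to 3′ on the plus strand, from RefSeq on GRCm38.p6, at chr12:83987681-83987860 for Acot2, chr12:84009310-84009489 for Acot1, chr12:84038199-84038378 for Acot4 and chr12:84051964-84052143 for Acot3. Capitals mark CCAAT on either strand and the loose direct repeat GGNCANAGGNCA.
Acot2: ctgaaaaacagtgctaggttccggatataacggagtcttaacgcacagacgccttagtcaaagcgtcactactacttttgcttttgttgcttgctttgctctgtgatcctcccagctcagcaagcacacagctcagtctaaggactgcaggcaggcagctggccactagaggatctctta
Acot1: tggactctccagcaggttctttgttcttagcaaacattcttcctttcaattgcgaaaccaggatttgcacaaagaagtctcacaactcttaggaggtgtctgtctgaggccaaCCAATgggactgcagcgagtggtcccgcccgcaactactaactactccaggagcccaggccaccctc
Acot4: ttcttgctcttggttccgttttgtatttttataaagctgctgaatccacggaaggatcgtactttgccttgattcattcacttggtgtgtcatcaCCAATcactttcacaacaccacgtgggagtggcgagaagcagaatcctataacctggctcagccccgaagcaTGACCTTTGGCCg
Acot3: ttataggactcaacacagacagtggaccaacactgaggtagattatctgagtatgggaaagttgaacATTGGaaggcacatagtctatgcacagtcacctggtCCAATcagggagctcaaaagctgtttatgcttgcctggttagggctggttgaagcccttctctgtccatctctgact

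Motifs were searched on both strands in up to 250 bases before the RefSeq start of the 7 members with an entry, which for Acot7 is a start inside the GENCODE gene. The share of all genes came from 32536 distinct windows of 250 bases. Acot13 has no entry. The direct repeat AGGTCANAGGTCA, the consensus for PPAR alpha with its partner RXR, was in 11 windows (0.0338%) and in none of the 7 members. The looser GGNCANAGGNCA, which was chosen after the Acot4 sequence had been seen and which contains every match of the strict form, was in 228 windows (0.701%). Among the members it was in Acot4 only, on the minus strand, 13 bases before the start. CCAAT was in 33.8% of windows and in those of Acot1, Acot2 (upstream of the bases printed), Acot3, Acot4 and Acot8, and TGACG, a core motif of cyclic AMP-responsive factors, was in 17.9% of windows and among the members in Acot2 only. A match describes these letters and is not evidence of binding.

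Levels per kb are CPM divided by the length of all annotated exons of the gene, merged. That length was 744 bases for Acot13, 3293 for Acot12 and 6674 for Acot4, and the order of members depends on it. On this scale Acot13 was the most abundant member in every group, with a mean of 91.0 CPM per kb in Dicretin, 123 in Semaglutide, 97.2 in calorie restriction and 119 in saline. Acot12 followed with 36.0, 52.7, 34.3 and 44.2 CPM per kb in the same 4 groups. By CPM without division by length, Acot12 stood above Acot13 in every group (145.7 and 88.28 CPM in saline). In Dicretin the order below Acot12 was Acot7 (19.4 CPM per kb), Acot1 (15.7), Acot3 (10.7), Acot8 (5.50), Acot2 (5.29) and Acot4 (3.15). In saline it was Acot3 (28.9 CPM per kb), Acot7 (14.0), Acot2 (8.93), Acot1 (8.61), Acot4 (6.31) and Acot8 (5.83). Acot7 and Acot1 thus stood above Acot3 in Dicretin and below it in saline. In Dicretin the neighbours Acot7 and Acot1, Acot1 and Acot3, Acot8 and Acot2, and Acot2 and Acot4 differed by less than the larger SD of the pair. In saline the same held for Acot2 and Acot1 and for Acot4 and Acot8.

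**Figure D1:**
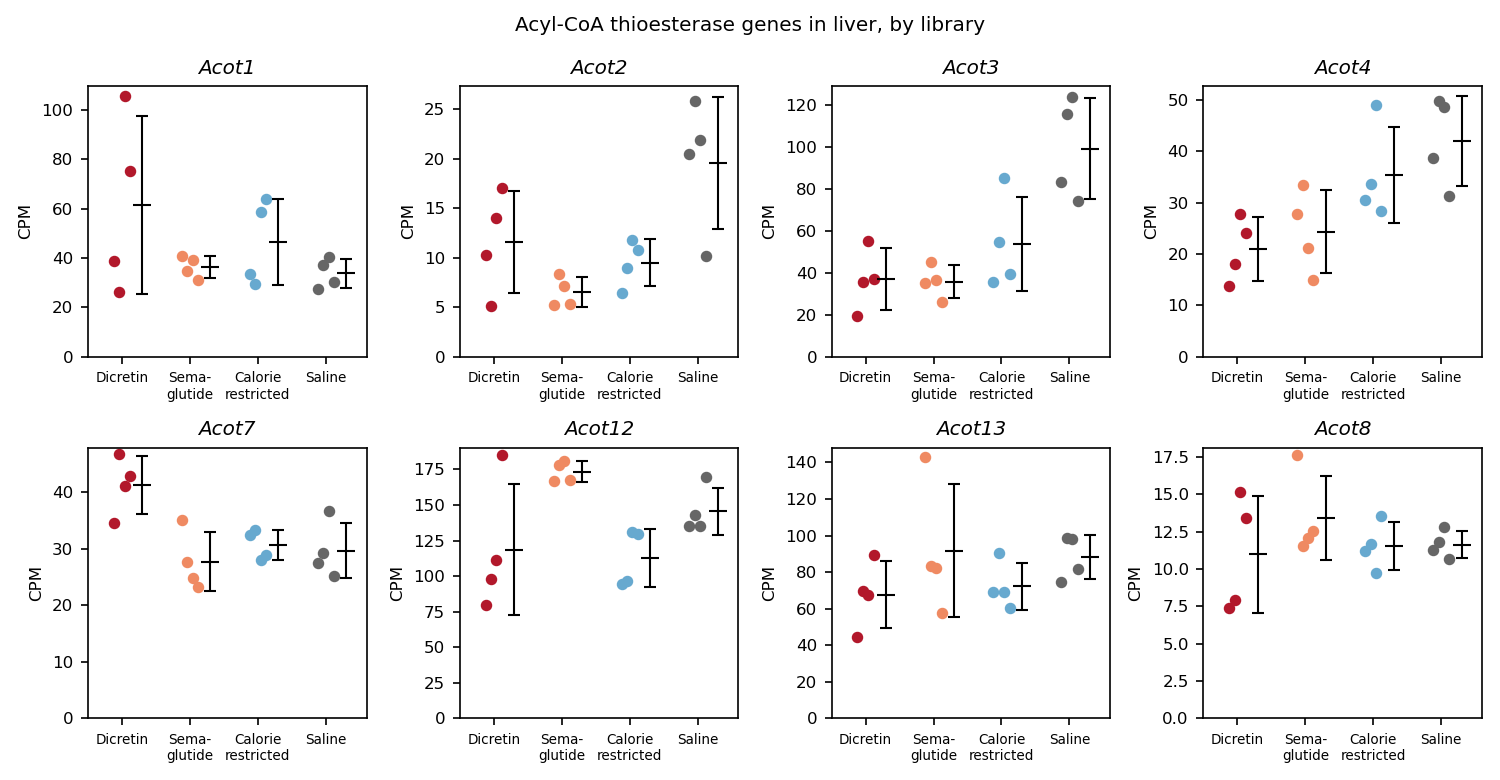
Level of each of the 8 members in CPM (vertical axis, from 0) in Dicretin, Semaglutide, calorie-restricted and saline livers; points are the 4 libraries of a group and bars the mean ± SD. Acot3 lies between 19.2 and 55.3 CPM in Dicretin livers and between 74.3 and 124 CPM in saline livers, and Acot12 between 167 and 181 CPM in Semaglutide livers.

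The family did not move as a block. Against saline, 2 members were higher with Dicretin (Acot1, Acot7) and 2 lower (Acot3, Acot4), and 36.7% of all tested genes passed in that comparison (17.5% higher and 19.2% lower). With Semaglutide 2 members were lower (Acot2, Acot3) and none higher, in a comparison where 4.18% of genes passed (1.56% higher and 2.62% lower). With calorie restriction no member passed at an adjusted p under 0.05 in edgeR's quasi-likelihood test, where 7.53% of genes did (3.42% higher and 4.11% lower); 2 members, Acot2 and Acot3, had an unadjusted p under 0.05, the DESeq2 Wald test called both and limma-voom called none. The 3 comparisons share the saline libraries, so their values stand side by side and are not independent of each other. The median log2 fold change of the 8 members was -0.34 with Dicretin, -0.02 with Semaglutide and -0.27 with calorie restriction, beside -0.01, 0 and -0.01 over all tested genes. The 4 livers of each group did not overlap with saline for Acot3 and Acot4 with Dicretin, for Acot2 and Acot3 with Semaglutide and for Acot12 with calorie restriction. Such separation was seen in 34.2%, 14.2% and 22.9% of all tested genes in those comparisons.

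**Figure D2:**
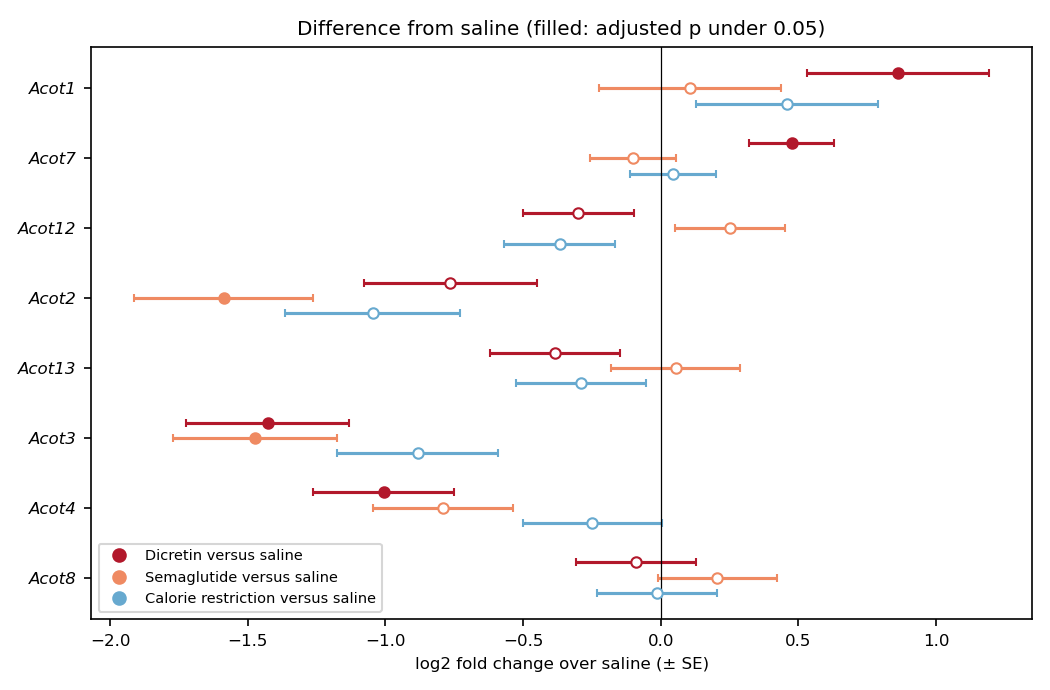
Log2 fold change over saline ± SE (horizontal axis) of each member with Dicretin, Semaglutide and calorie restriction; filled points have an adjusted p under 0.05. Acot1 and Acot7 lie right of 0 with Dicretin, Acot3 and Acot4 left of it, and Acot8 within 1 SE of 0 in all 3.

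Of the 3 peroxisomal members, Acot3 and Acot4 fell with Dicretin, Acot3 also fell with Semaglutide, and Acot8 passed in no comparison. Acot3, which in mouse cleaves medium- and long-chain acyl-CoAs inside peroxisomes, was at 19.2, 35.9, 55.3 and 37.2 CPM in Dicretin livers 14, 23, 64 and 65 and at 35.2, 45.1, 36.7 and 26.0 CPM in Semaglutide livers 11, 15, 31 and 51. It was at 35.9, 54.8, 85.0 and 39.4 CPM in calorie-restricted livers 7, 8, 52 and 79, against 83.1, 116, 124 and 74.3 CPM in saline livers 35, 50, 73 and 78. Every Dicretin and every Semaglutide liver was below the lowest saline liver, whereas calorie-restricted liver 52 lay within the saline range. Acot3 fell 2.69-fold with Dicretin (log2 fold change -1.43 ± 0.30 SE, adjusted p = 0.00107, edgeR's quasi-likelihood test, adjusted by Benjamini-Hochberg over all tested genes, as for every adjusted p unless another test is named). It fell 2.78-fold with Semaglutide (-1.47 ± 0.30, adjusted p = 0.0073). Both calls held in every alternative and with each library left out, with adjusted p of at most 0.00694 for Dicretin and 0.034 for Semaglutide. With calorie restriction the log2 fold change was -0.88 ± 0.29 (adjusted p = 0.0716), and it passed without calorie-restricted liver 52 (-1.18, adjusted p = 0.0249) and in the DESeq2 Wald test (adjusted p = 0.0371).

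Acot4, the neighbour of Acot3, is a peroxisomal enzyme that in mouse acts on succinyl-CoA and other dicarboxylic acyl-CoAs. It was at 13.9, 18.1, 27.9 and 24.2 CPM in Dicretin livers 14, 23, 64 and 65 and at 27.8, 33.6, 21.2 and 15.0 CPM in Semaglutide livers 11, 15, 31 and 51. Calorie-restricted livers 7, 8, 52 and 79 held 30.6, 33.8, 49.0 and 28.4 CPM, against 38.7, 49.8, 48.7 and 31.3 CPM in saline livers 35, 50, 73 and 78. The Dicretin livers were all below the saline livers, while 1 Semaglutide liver and 2 calorie-restricted livers reached the saline range. Acot4 fell 2.01-fold with Dicretin (log2 fold change -1.01 ± 0.26, edgeR adjusted p = 0.00491), a call that held in every alternative and with each library left out (adjusted p of at most 0.021). Without Semaglutide 11 and Dicretin 14 the log2 fold change with Dicretin was -0.85 for Acot4 (adjusted p = 0.017) and -1.21 for Acot3 (0.00694), and with Semaglutide it was -1.47 for Acot3 (0.017). The Semaglutide difference was -0.79 ± 0.25 (adjusted p = 0.09; 0.0494 in the DESeq2 Wald test) and the calorie restriction difference -0.25 ± 0.25 (adjusted p = 0.6). The overlapping antisense gene 4732463B04Rik averaged 0.476 CPM in Dicretin, 1.51 in Semaglutide, 1.55 in calorie restriction and 2.22 in saline, far below either neighbour's level.

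Acot8 encodes a peroxisomal thioesterase of broad specificity that also acts on bile acid-CoA esters. It was at 7.39, 7.92, 15.2 and 13.4 CPM in Dicretin livers 14, 23, 64 and 65, with group means of 11.0 ± 3.91 CPM in Dicretin, 13.4 ± 2.82 in Semaglutide, 11.5 ± 1.58 in calorie restriction and 11.6 ± 0.897 in saline (SD, n = 4 each). The Dicretin livers split on both sides of the saline range of 10.7 to 12.8 CPM, 14 and 23 below it and 64 and 65 above it. No difference from saline passed (log2 fold changes of -0.09 ± 0.22 with Dicretin, 0.21 ± 0.22 with Semaglutide and -0.01 ± 0.22 with calorie restriction, edgeR adjusted p of 0.776, 0.648 and 0.98). Changes of the order of 1 SE could not be detected at this spread, and the sign of the Dicretin value turned without Semaglutide 11 and Dicretin 14 (0.06).

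In the mitochondria, Acot2 fell with Semaglutide, and Acot13 passed in no comparison. Acot2, the matrix enzyme for long-chain acyl-CoAs, was at 10.3, 5.13, 14.0 and 17.1 CPM in Dicretin livers 14, 23, 64 and 65 and at 5.25, 8.35, 7.19 and 5.32 CPM in Semaglutide livers 11, 15, 31 and 51. Calorie-restricted livers 7, 8, 52 and 79 held 6.42, 9.01, 11.8 and 10.8 CPM, against 20.5, 25.8, 21.9 and 10.2 CPM in saline livers 35, 50, 73 and 78. Saline liver 78 was at less than the others of its group, within the Dicretin and calorie-restricted ranges, yet all Semaglutide livers were below it. Acot2 fell 3.01-fold with Semaglutide (log2 fold change -1.59 ± 0.33, edgeR adjusted p = 0.00787), the largest fold of any member in any of the 6 comparisons. The call held in every alternative that kept Acot2 as its own feature and with each library left out (adjusted p of at most 0.0407, the value without Semaglutide 11 and Dicretin 14). With Dicretin the difference was -0.76 ± 0.32 (adjusted p = 0.0653), and it passed without Dicretin 65 (adjusted p = 0.0254), without saline 78 (-0.97, adjusted p = 0.0203) and with limma-voom (adjusted p = 0.0434). With calorie restriction it was -1.05 ± 0.32 (adjusted p = 0.0514), and it passed without saline 78 (-1.26, adjusted p = 0.0219), with upper quartile factors (adjusted p = 0.0482), in the DESeq2 Wald test (0.0188) and in a fit of the 2 groups alone (0.0246).

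Acot13, also called Them2, is a mitochondria-associated thioesterase that binds the phosphatidylcholine transfer protein Pctp. It was at 44.2, 69.6, 67.6 and 89.5 CPM in Dicretin livers 14, 23, 64 and 65 and at 143, 83.3, 82.5 and 57.8 CPM in Semaglutide livers 11, 15, 31 and 51. Calorie-restricted livers 7, 8, 52 and 79 held 69.2, 90.5, 69.2 and 60.3 CPM, against 74.7, 98.5, 98.1 and 81.9 CPM in saline livers 35, 50, 73 and 78. Dicretin 14 was the lowest of the 16 libraries and Semaglutide 11 the highest, the same libraries that had the highest and the lowest TMM factor. No difference from saline passed (-0.38 ± 0.24 with Dicretin, 0.05 ± 0.24 with Semaglutide and -0.29 ± 0.24 with calorie restriction, edgeR adjusted p of 0.216, 0.928 and 0.504). Without those 2 libraries the values were -0.22 with Dicretin and -0.24 with Semaglutide, the second with its sign turned.

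Of the cytosolic members, Acot7 was higher with Dicretin. Its product, known best from brain and macrophages, prefers arachidonoyl-CoA. It was at 34.4, 46.7, 41.1 and 42.9 CPM in Dicretin livers 14, 23, 64 and 65 and at 35.0, 27.7, 24.8 and 23.2 CPM in Semaglutide livers 11, 15, 31 and 51. Calorie-restricted livers 7, 8, 52 and 79 held 32.5, 33.2, 28.0 and 28.8 CPM, against 27.5, 29.3, 36.6 and 25.2 CPM in saline livers 35, 50, 73 and 78. Dicretin 14 overlapped with the saline range, and the other Dicretin livers were above all 12 livers of the other groups. Acot7 rose 1.39-fold over saline with Dicretin (log2 fold change 0.48 ± 0.16, edgeR adjusted p = 0.0228). The call held in every alternative (adjusted p of at most 0.0448) but not without Dicretin 23 (0.43, adjusted p = 0.0563), saline 35 (0.45, adjusted p = 0.0626) or saline 78 (0.41, adjusted p = 0.0713). The differences with Semaglutide (-0.10 ± 0.16, adjusted p = 0.771) and calorie restriction (0.05 ± 0.16, adjusted p = 0.896) did not pass.

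Acot1 encodes the cytosolic long-chain acyl-CoA thioesterase that fasting is known to induce in rodent liver. It was at 38.8, 26.2, 106 and 75.1 CPM in Dicretin livers 14, 23, 64 and 65 and at 40.6, 34.6, 39.1 and 31.1 CPM in Semaglutide livers 11, 15, 31 and 51. Calorie-restricted livers 7, 8, 52 and 79 held 33.4, 29.6, 58.7 and 63.9 CPM, against 27.5, 37.0, 40.4 and 30.2 CPM in saline livers 35, 50, 73 and 78. Dicretin 64 and 65 were above all saline livers, Dicretin 14 was inside the saline range and Dicretin 23 below it. The mean was 61.4 ± 36.0 CPM in Dicretin and 33.8 ± 5.94 CPM in saline (SD, n = 4 each). The 1.82-fold rise with Dicretin was close to the threshold (log2 fold change 0.86 ± 0.33, edgeR adjusted p = 0.0491) and rests on those 2 livers. It was lost in 5 of 9 alternatives, with adjusted p of up to 0.132, and in 6 of 8 fits that left out a library. Without Semaglutide 11 and Dicretin 14 the log2 fold change was 1.03 (adjusted p = 0.0545). Without Dicretin 64 it was 0.47 (adjusted p = 0.252) and without Dicretin 65 it was 0.75 (0.12). Without saline 35, 50, 73 or 78 it was 0.78 (0.119), 0.93 (0.0684), 0.98 (0.0529) and 0.81 (0.102). The differences with Semaglutide (0.11 ± 0.33, adjusted p = 0.896) and calorie restriction (0.46 ± 0.33, adjusted p = 0.436) did not pass.

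Acot12, the cytosolic enzyme of liver that splits acetyl-CoA into acetate and coenzyme A, was at 79.8, 97.8, 111 and 185 CPM in Dicretin livers 14, 23, 64 and 65 and at 167, 178, 181 and 168 CPM in Semaglutide livers 11, 15, 31 and 51. Calorie-restricted livers 7, 8, 52 and 79 held 94.3, 96.2, 131 and 130 CPM, against 135, 143, 135 and 170 CPM in saline livers 35, 50, 73 and 78. The calorie-restricted livers were all below the saline livers, 3 Dicretin livers were below them as well, and Dicretin 65 was above all others. No difference from saline passed. The log2 fold change was -0.30 ± 0.20 with Dicretin (edgeR adjusted p = 0.259), and it passed without Dicretin 65 (-0.60, adjusted p = 0.00791). It was 0.25 ± 0.20 with Semaglutide (adjusted p = 0.533) and -0.37 ± 0.20 with calorie restriction (adjusted p = 0.287).

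The treatments were also compared with each other, each drug with calorie restriction of equivalent weight loss and Dicretin with Semaglutide. The drugs are different molecules, and their doses are not in the labels used here. A part of GCGR activation in their difference therefore cannot be told apart. Between Dicretin and calorie restriction, where 31.3% of tested genes passed (15.1% higher and 16.2% lower), Acot7 was higher and Acot4 lower, and both groups of livers did not overlap for these members (28.4% of genes showed such separation). Acot7 averaged 41.3 ± 5.11 CPM in Dicretin and 30.6 ± 2.61 CPM in calorie restriction (log2 fold change 0.43 ± 0.16, edgeR adjusted p = 0.0427), and Acot4 averaged 21.02 ± 6.24 CPM in Dicretin and 35.4 ± 9.33 CPM in calorie restriction (-0.76 ± 0.26, adjusted p = 0.0304). Neither call was firm. That of Acot7 was lost in 3 of 10 alternatives and when any library except Dicretin 14 was left out, with log2 fold changes of 0.37 to 0.47 in those fits and adjusted p of 0.11 without Dicretin 23, 0.0684 without Dicretin 64, 0.0813 without Dicretin 65, and 0.0591, 0.053, 0.1 and 0.0996 without calorie-restricted 7, 8, 52 and 79. That of Acot4 was lost without Dicretin 14 (-0.60, adjusted p = 0.0789), Dicretin 23 (-0.69, 0.0797) or calorie-restricted 52 (-0.55, 0.126), without Semaglutide 11 and Dicretin 14 together (0.0799) and with the length trend removed (0.0937). The log2 fold changes of Acot3 (-0.54), Acot1 (0.40) and Acot2 (0.28) had adjusted p of 0.17, 0.377 and 0.534, and those of Acot13, Acot8 and Acot12 were between -0.10 and 0.07.

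Between Semaglutide and calorie restriction no member passed in edgeR's quasi-likelihood test, where 6.12% of tested genes did (3.05% higher and 3.07% lower), nor in limma-voom. Of the members, 2 had an unadjusted p under 0.05, Acot4 (log2 fold change -0.54, adjusted p = 0.208) and Acot12 (0.62 ± 0.20, adjusted p = 0.0743). Acot12 averaged 174 ± 7.12 CPM in Semaglutide and 113 ± 20.4 CPM in calorie restriction, and was the 1 member whose groups did not overlap, as in 15.6% of genes. Its difference passed in the DESeq2 Wald test (adjusted p = 0.0387), in a fit of the 2 groups alone (0.0328) and without Semaglutide 11 and Dicretin 14 (0.0434).

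Between Dicretin and Semaglutide, where 32% of tested genes passed (14.8% higher and 17.1% lower), Acot7 was higher and Acot12 lower. Acot7 averaged 41.3 ± 5.11 CPM in Dicretin and 27.7 ± 5.25 CPM in Semaglutide (log2 fold change 0.58 ± 0.16, edgeR adjusted p = 0.0085), and this call held in every alternative and with each library left out (adjusted p of at most 0.0456). Acot12 averaged 118 ± 46.1 CPM in Dicretin and 174 ± 7.12 CPM in Semaglutide (-0.55 ± 0.20, adjusted p = 0.0434). Its call was lost in 4 of 10 alternatives, among them the fit without Semaglutide 11 and Dicretin 14 (-0.42, adjusted p = 0.103), and in 6 of 8 fits with a library left out, with log2 fold changes and adjusted p of -0.40 (0.133) without Dicretin 14, -0.46 (0.129) without Dicretin 23, -0.52 (0.0879) without Dicretin 64, -0.54 (0.0799) without Semaglutide 15, -0.52 (0.0916) without Semaglutide 31 and -0.56 (0.0675) without Semaglutide 51. For no member were the 4 livers of both groups apart, against 26.2% of all tested genes. Acot1 (0.76 ± 0.33, adjusted p = 0.0906) and Acot2 (0.82 ± 0.32, adjusted p = 0.0604) did not pass, and both passed without Dicretin 23 (1.02, adjusted p = 0.0148, and 1.08, adjusted p = 0.00967). Acot2 also passed in the DESeq2 Wald test (0.84, adjusted p = 0.034) and with the length trend removed (0.89, adjusted p = 0.0391). Acot3, lower than saline with either drug, had a log2 fold change of 0.05 ± 0.29 between the drugs (adjusted p = 0.922).

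Pairs of members were also set against each other within each liver, which removes the scaling of the library. The pairs were chosen with earlier results of these data known and rest on the same counts as the fold changes, so their tests are another view of those values and not independent evidence. The log2 ratio of Acot1 to Acot2 counts was 1.91, 2.34, 2.91 and 2.14 in Dicretin livers 14, 23, 64 and 65 and 2.94, 2.05, 2.44 and 2.54 in Semaglutide livers 11, 15, 31 and 51. It was 2.37, 1.71, 2.31 and 2.56 in calorie-restricted livers 7, 8, 52 and 79, against 0.42, 0.52, 0.88 and 1.57 in saline livers 35, 50, 73 and 78. All 12 livers of the weight-loss groups had a higher ratio than all 4 saline livers. The mean ratio was higher than in saline by 1.48 with Dicretin, 1.65 with Semaglutide and 1.39 with calorie restriction on the log2 scale, each with p = 0.0286 in an exact two-sided permutation test, the smallest p that 4 against 4 livers allow, and 0.0468 after Benjamini-Hochberg adjustment over 18 tests of 6 pairs. When the 2 close copies were summed, no difference from saline passed (log2 fold changes of 0.45 ± 0.32 with Dicretin, -0.32 ± 0.32 with Semaglutide and 0.07 ± 0.32 with calorie restriction, edgeR adjusted p of 0.28, 0.629 and 0.928).

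The log2 ratio of Acot4 to Acot3, the neighbouring peroxisomal members, was -0.47, -0.98, -0.99 and -0.62 in Dicretin livers 14, 23, 64 and 65 and -0.34, -0.43, -0.79 and -0.79 in Semaglutide livers 11, 15, 31 and 51. It was -0.23, -0.70, -0.79 and -0.47 in calorie-restricted livers 7, 8, 52 and 79, against -1.10, -1.22, -1.34 and -1.25 in saline livers 35, 50, 73 and 78. Again every liver of the 3 weight-loss groups was above every saline liver, so Acot3 stood lower relative to Acot4 in all of them (differences of 0.46, 0.64 and 0.68 for Dicretin, Semaglutide and calorie restriction, exact permutation p = 0.0286, adjusted p = 0.0468 each). Acot1 to Acot4 averaged 1.39 ± 0.60 in Dicretin, 0.63 ± 0.44 in Semaglutide, 0.34 ± 0.58 in calorie restriction and -0.31 ± 0.20 in saline. The exact permutation test gave an adjusted p of 0.0468 for either drug and 0.0857 for calorie restriction. Acot8 to Acot4 averaged -0.95 ± 0.16 in Dicretin, -0.81 ± 0.54 in Semaglutide, -1.59 ± 0.53 in calorie restriction and -1.83 ± 0.23 in saline, with exact permutation adjusted p of 0.0468, 0.0468 and 0.546. The 2 mitochondrial members differed with Semaglutide, where Acot2 to Acot13 was lower than in saline by -1.52 (adjusted p = 0.0468), while Dicretin (-0.39, adjusted p = 0.546) and calorie restriction (-0.70, adjusted p = 0.158) did not pass in the exact permutation test. Acot12 to Acot13 did not pass in any group (differences of 0.05, 0.27 and -0.09, exact permutation adjusted p of 0.514 or more). Since saline enters all 3 comparisons of a pair, these are not separate tests.

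**Figure D3:**
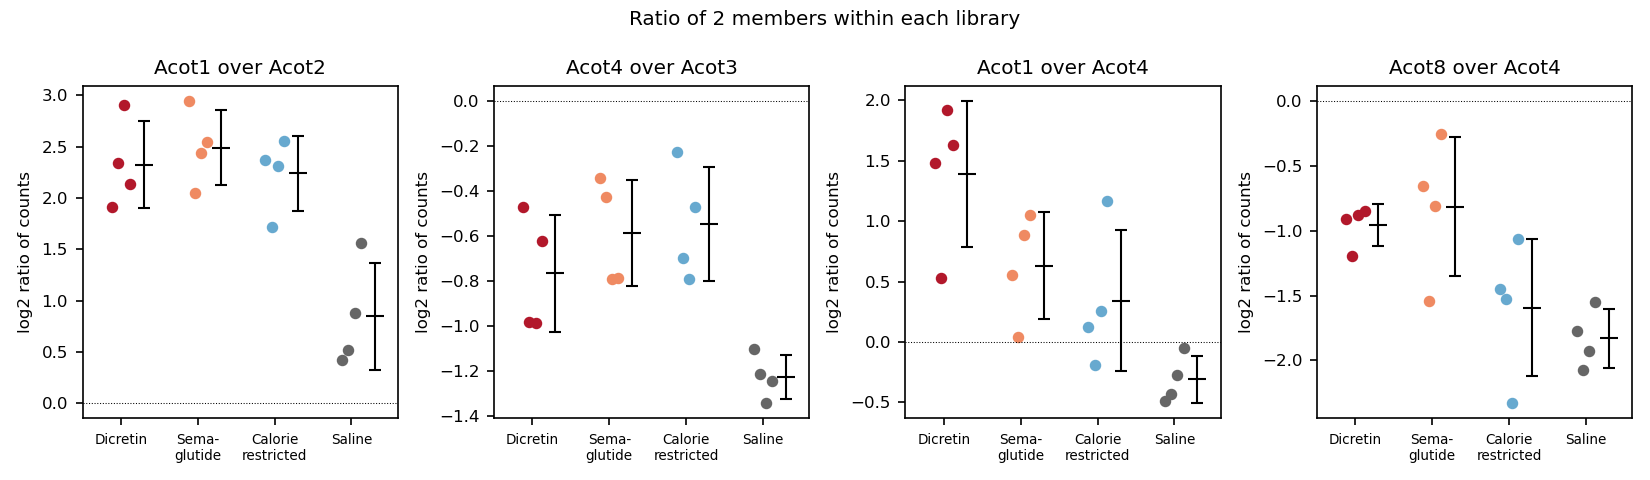
Log2 ratio of the counts of a pair of members within each library (vertical axis), in Dicretin, Semaglutide, calorie-restricted and saline livers; points are libraries and bars the mean ± SD. In the panels of Acot1 over Acot2 and of Acot4 over Acot3, all points of the 3 weight-loss groups lie above all 4 saline points.

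Along the chromosome, Acot1 lies between Acot2 and Acot4, and in no comparison with saline did both of these pass. With Dicretin the log2 fold changes ran -0.76 for Acot2, 0.86 for Acot1, -1.01 for Acot4 and -1.43 for Acot3. With Semaglutide they ran -1.59, 0.11, -0.79 and -1.47, and with calorie restriction -1.05, 0.46, -0.25 and -0.88, in the same order. The positive value of Acot1 had its sign in all 3 comparisons, though it passed with Dicretin only and there without a firm call.

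**Figure D4:**
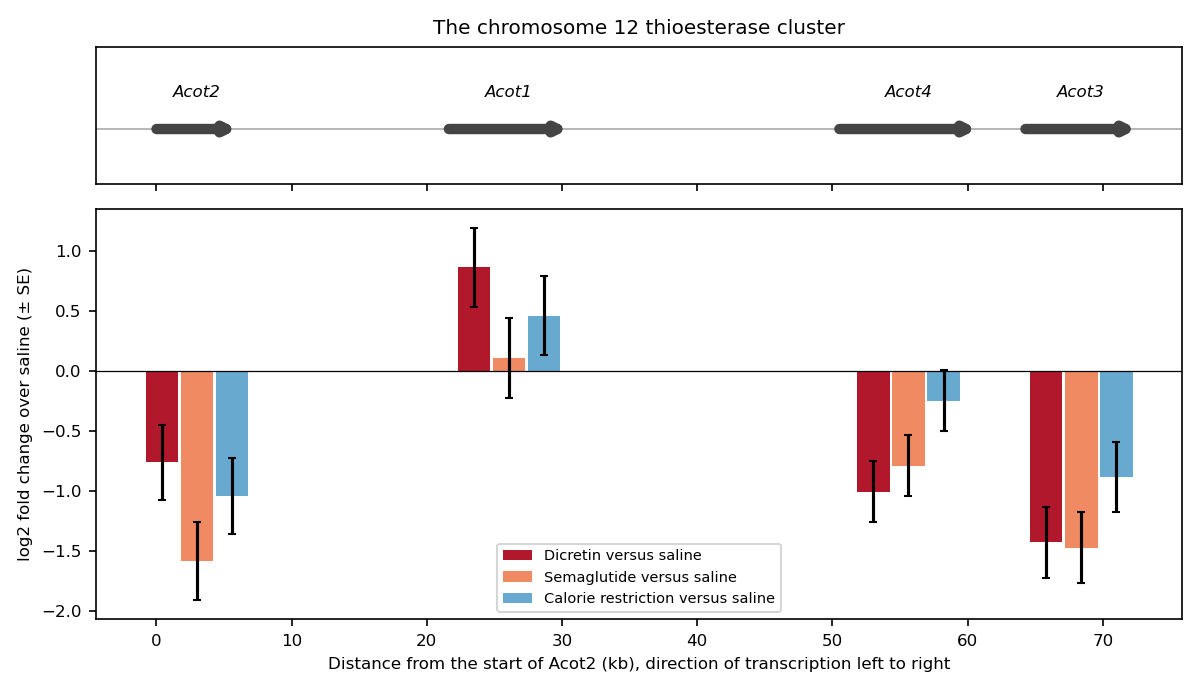
The chromosome 12 cluster, with the genes as arrows by distance from the start of Acot2 in kb (upper panel), and below each gene its log2 fold change over saline ± SE with Dicretin, Semaglutide and calorie restriction. The bars of Acot1 point up (0.86 with Dicretin) and those of Acot2, Acot4 and Acot3 down.

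On the per-length scale the transcripts of the 8 members summed to 187 CPM per kb on average in Dicretin (126 to 245 over livers), 222 in Semaglutide (166 to 296), 189 in calorie restriction (169 to 205) and 235 in saline (206 to 260). Acot13 took 48.8% of the sum in Dicretin, 54.1% in Semaglutide, 51.4% in calorie restriction and 50.3% in saline. The peroxisomal members together took 10.3% ± 2.26 in Dicretin, 9.52% ± 1.33 in Semaglutide, 14.0% ± 2.78 in calorie restriction and 17.3% ± 1.98 in saline (SD, n = 4 each). The ranges over livers were 8.65% to 13.6%, 7.85% to 11.1%, 12.2% to 18.2% and 14.5% to 19.1% in the same groups, so both drug groups were apart from saline and calorie restriction was not. The cytosolic members took 38.0% ± 2.68, 35.0% ± 6.54, 32.3% ± 5.57 and 28.6% ± 3.17, and the mitochondrial ones 51.7%, 55.5%, 53.7% and 54.1%. These shares follow from the levels already given and are a description, without a test. They count transcripts and not enzyme.

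**Figure D5:**
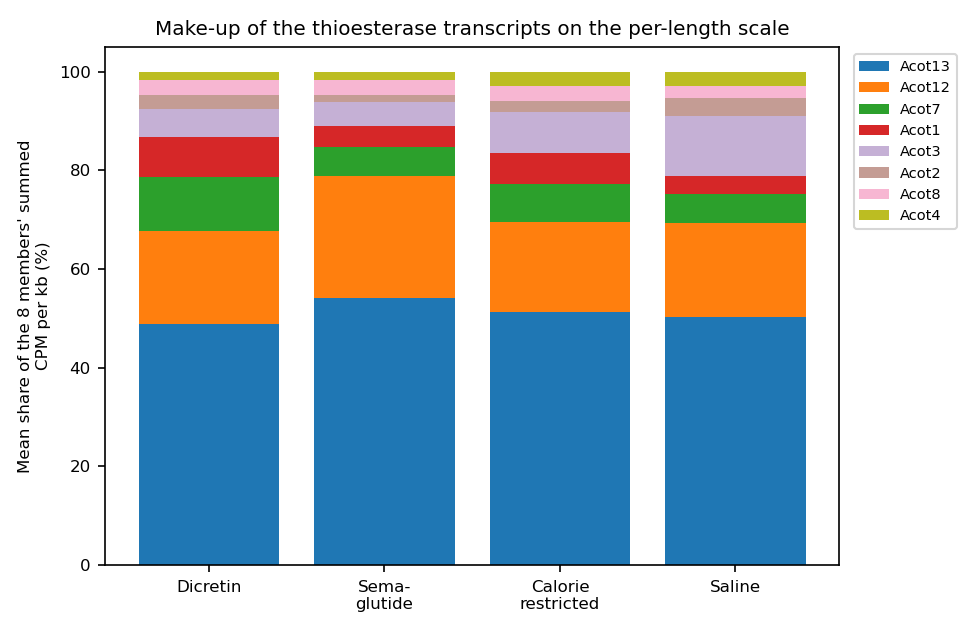
Mean share (%, vertical axis from 0) of each member in the summed CPM per kb of the 8 genes, in Dicretin, Semaglutide, calorie-restricted and saline livers (4 libraries each). Acot13 and Acot12 fill most of each bar; the share of Acot3 is 5.70% in Dicretin, 4.79% in Semaglutide, 8.14% in calorie restriction and 12.1% in saline.

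The counts of the gene lists that follow stand beside the shares of all tested genes, 17.5% higher and 19.2% lower with Dicretin, 1.56% and 2.62% with Semaglutide, and 3.42% and 4.11% with calorie restriction, and beside median log2 fold changes over all genes of -0.01, 0 and -0.01. Among other thioesterase genes, of the 9 tested of 13 listed (Acot5, Acot10, Them5 and Olah were too low), 2 were higher and 3 lower with Dicretin, 1 was lower with Semaglutide, and 1 was higher and 3 lower with calorie restriction (median log2 fold changes of -0.23, -0.21 and -0.29). Them4, a mitochondrial thioesterase, averaged 64.3 ± 12.1 CPM in Dicretin, 22.2 ± 7.21 in Semaglutide, 26.7 ± 3.71 in calorie restriction and 14.1 ± 0.693 in saline (SD, n = 4 each). It rose with Dicretin (log2 fold change 2.19 ± 0.20, edgeR adjusted p = 1.59e-07) and with calorie restriction (0.92 ± 0.19, adjusted p = 0.00641), and was higher with Dicretin than with calorie restriction (1.27 ± 0.19, adjusted p = 6.23e-05) or Semaglutide (1.53 ± 0.19, adjusted p = 8.34e-06). Acot11, a long-chain thioesterase first found in brown fat, fell with Dicretin (-1.40 ± 0.28, adjusted p = 0.000796), and its call with Semaglutide was at the threshold (-0.99 ± 0.28, adjusted p = 0.049; -0.86 and 0.0845 without Semaglutide 11 and Dicretin 14; up to 0.158 with 1 library left out). Ppt1, the lysosomal palmitoyl-protein thioesterase, fell with Dicretin (-0.57 ± 0.13, adjusted p = 0.00202). Acot6, which shares 50-base stretches with Acot4, was at 0.764 ± 0.404 CPM in calorie restriction and 2.55 ± 0.922 CPM in saline (-1.73 ± 0.44, adjusted p = 0.0228, up to 0.0854 with a library left out). Of these counts, 3 lower with calorie restriction became 0 without calorie-restricted 7 or 79 or saline 35, 50 or 73, and 1 without calorie-restricted 8. The 1 lower with Semaglutide became 0 without Semaglutide 11, 31 or 51 or saline 35, 50 or 73, and 2 higher with Dicretin became 1 without saline 35 or 73. Them4 had 0.65 ± 0.19 with Semaglutide (adjusted p = 0.0606) and passed there in the DESeq2 Wald test (0.0257), with the length trend removed (0.0308) and without Semaglutide 51 (0.0323).

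The enzymes that make the substrates of the family, the acyl-CoA synthetases, had 1 higher and 8 lower of 16 tested genes with Dicretin, where 19.2% of all genes were lower. Their median log2 fold change was -0.54 with Dicretin, -0.28 with Semaglutide and -0.05 with calorie restriction. Acsl4, which prefers arachidonic acid, the acyl chain that Acot7 prefers as a CoA ester, rose to 317 ± 40.9 CPM in Dicretin, against 41.8 ± 4.75 CPM in saline (log2 fold change 2.92 ± 0.17, edgeR adjusted p = 1.08e-09), and had 0.09 ± 0.16 with Semaglutide (adjusted p = 0.811) and 0.38 ± 0.16 with calorie restriction (adjusted p = 0.155). Acsm5, a mitochondrial medium-chain synthetase, fell with Dicretin (-1.64 ± 0.20, adjusted p = 6.21e-06), as did Acsf3, the mitochondrial malonyl-CoA synthetase (-0.79 ± 0.13, adjusted p = 0.000159). With Semaglutide none was higher and 2 were lower, and with calorie restriction 1 was higher (Acsl3, 0.87 ± 0.17, adjusted p = 0.00436) and 1 lower. The 2 became 1 and the 1 became 0 when any library of those groups was left out, and over the alternatives they ranged over 0 to 3 with Semaglutide and 0 to 4 with calorie restriction.

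Genes of peroxisomal fatty acid oxidation, which share the compartment of Acot3 and Acot4, fell with Dicretin in 15 of 19 tested genes and rose in none (median log2 fold change -0.88). Pex11a, which drives peroxisome division, averaged 64.3 ± 7.91 CPM in Dicretin and 212 ± 47.6 CPM in saline (-1.72 ± 0.20, edgeR adjusted p = 3.21e-06). Hsd17b4, a bifunctional enzyme of the pathway, averaged 308.0 ± 28.9 CPM in Dicretin and 641 ± 55.9 CPM in saline (-1.06 ± 0.13, adjusted p = 4.76e-06). With Semaglutide 6 were lower and with calorie restriction 3, and none rose in either (1 did with calorie restriction in the DESeq2 Wald test and in the fit of the 2 groups alone). Pex11a (-1.17 ± 0.20, adjusted p = 0.00229) and Crat, the carnitine acetyltransferase (-1.07 ± 0.20, adjusted p = 0.00471), were among the 6, and Pex11a (-0.91 ± 0.20, adjusted p = 0.00836) among the 3. The 3 became 1 without calorie-restricted 7 or 8 or without saline 35 or 50. Genes of mitochondrial fatty acid oxidation, beside which Acot2 works, had 2 higher and 3 lower of 17 tested with Dicretin, a total share not above the 36.7% of all genes that passed there, and 1 lower with either other treatment. Hadh (-0.73 ± 0.14, adjusted p = 0.000465) and Eci1 (-0.68 ± 0.17, adjusted p = 0.00416) fell and Hadhb (0.49 ± 0.13, adjusted p = 0.00759) rose with Dicretin. The 2 higher became 4 without Semaglutide 11 and Dicretin 14 together and 1 without Dicretin 64, Dicretin 65 or saline 35, and the single gene of the other treatments, Cpt1a, lost its call without saline 35 or 50 with Semaglutide (adjusted p of up to 0.0684), and without calorie-restricted 7, 8 or 52 or saline 35, 50 or 73 with calorie restriction (up to 0.11).

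Known PPAR alpha targets, a list that overlaps with the peroxisomal one, were divided with Dicretin, 7 higher and 13 lower of 27 tested, and were lower or not called with Semaglutide (9 lower, none higher) and calorie restriction (8 lower, none higher; 3 lower without calorie-restricted 7 or 8 or without saline 35, 50 or 73, and 5 without calorie-restricted 52; limma-voom called 1 higher and the fit of the 2 groups alone 2, and without a filter on low counts 5 were lower). Aldh3a2, a fatty aldehyde dehydrogenase, fell with Dicretin (-1.56 ± 0.17, edgeR adjusted p = 1e-06). Cidec, a lipid droplet protein, averaged 2.64 ± 0.885 CPM in Semaglutide, 1.76 ± 1.04 CPM in calorie restriction and 49.1 ± 21.3 CPM in saline (-4.22 ± 0.53, adjusted p = 0.000264, and -4.77 ± 0.55, adjusted p = 5.44e-05). Among 19 tested regulators 3 were higher and 9 lower with Dicretin, led by the coactivator Ppargc1a (2.83 ± 0.16, adjusted p = 1.08e-09), the adipogenic receptor Pparg (-3.84 ± 0.24, adjusted p = 3.14e-09) and the xenobiotic receptor Nr1i3 (-3.13 ± 0.42, adjusted p = 2.27e-05). Pparg was also lower with Semaglutide (-1.998 ± 0.22, adjusted p = 4.6e-05) and calorie restriction (-1.38 ± 0.21, adjusted p = 0.000592). With Semaglutide 1 regulator was higher and 1 lower, and with calorie restriction 1 was higher (Ppard, lost without calorie-restricted 7 or 79 or any saline library) and 2 lower. Ppara itself had a log2 fold change of -0.64 with Dicretin (adjusted p = 0.041), a call that was lost without Dicretin 23, 64 or 65 or saline 35, 50 or 78 (adjusted p of up to 0.12). The call was also lost without a filter on low counts (adjusted p = 0.0735) and with the length trend removed (adjusted p = 0.0572).

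Coenzyme A, the other product of the reaction, is made and broken down by 15 tested genes, of which 1 was higher and 7 lower with Dicretin (3 lower without a filter on low counts, 4 with the length trend removed or without saline 35, 50 or 78). Pank1, the kinase at the start of its synthesis, fell (-0.93 ± 0.14, edgeR adjusted p = 5.39e-05), and Nudt19, a peroxisomal hydrolase of coenzyme A known from mouse kidney, rose to 137 ± 5.44 CPM in Dicretin, against 59.8 ± 9.38 CPM in saline (1.20 ± 0.19, adjusted p = 0.000111). Pank1 was lower with calorie restriction too (-0.79 ± 0.14, adjusted p = 0.00207), the 1 gene of the list that passed there, and with Semaglutide 1 gene was higher (Enpp1) and 1 lower (Pank3), each lost without Semaglutide 31 or 51 or saline 35, 50 or 73, Enpp1 also without Semaglutide 15 and Pank3 also without Semaglutide 11 or saline 78. Of 11 tested acyl-CoA carriers and partners none was higher and 4 were lower with Dicretin (median log2 fold change -0.39), a total share close to the 36.7% of all genes that passed there, and none passed in edgeR with Semaglutide or calorie restriction, where 0 and 1 of them, Fabp2, had an unadjusted p under 0.05 and the DESeq2 Wald test called 0 and 1. Pctp, the partner of Acot13, averaged 77.3 ± 25.8 CPM in Dicretin and 167 ± 20.9 CPM in saline (-1.11 ± 0.19, adjusted p = 0.000153). Fabp1, the main fatty acid binding protein of hepatocytes, averaged 2859 ± 1430 CPM in Dicretin and 6547 ± 717 CPM in saline (-1.20 ± 0.28, adjusted p = 0.00294), and Fabp2 had -2.46 ± 0.33 (adjusted p = 1.38e-05).

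Finally, the genes whose pattern over the 16 libraries was most like that of a member were found by the root mean square difference of centred log2 CPM among 11615 candidates, where 0 would be an identical pattern. For Acot1 it was Retsat (0.244, beside a root mean square of 0.547 of Acot1 about its own mean), at 792 CPM in Dicretin, 611 in Semaglutide, 639 in calorie restriction and 476 in saline, followed by Cyp4b1 (0.324) and Zfp772 (0.354). For Acot7 it was Txn2 (0.132, beside 0.285), at 294, 190, 204 and 188 CPM, followed by Mdh1 (0.142) and Atp5d (0.149). For Acot3 it was Pmm1 (0.292, beside 0.735), at 3.68, 3.89, 4.26 and 9.14 CPM, then Pex11a (0.380) and Prnp (0.400). Acot4 was most like Nqo1 (0.327, beside 0.545), 1700052K11Rik (0.334) and Endod1 (0.336), and Acot2 like Hk3 (0.329, beside 0.716), Myo1f (0.407) and Ucp2 (0.419). Several of these genes were low, among them Zfp772, 1700052K11Rik and Hk3, with group means of 1.76 to 2.64, 1.34 to 2.32 and 1.21 to 3.22 CPM. The genes named for the 4 neighbours in the cluster were different for each. With 3 kept per member out of 11615 candidates, that says little about how alike the neighbours are.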

How the data were processed

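Liver RNA was poly(A)-selected and sequenced from directional libraries, per the labels' protocols. Per the submitters' processing notes, TopHat2 2.1.1 and featureCounts were used, with mm10 as the build. The counting options, strand setting and annotation release are not given in the sources used here. The deposited values were raw counts per gene by the authors, with no normalization. Positions came from GENCODE M21 and upstream sequences from RefSeq.

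Counts were tested with edgeR 4.0.16 in R 4.3.3: filterByExpr, TMM factors, 1 quasi-likelihood fit (robust) of all 16 libraries, 6 comparisons and Benjamini-Hochberg adjustment over 12910 genes, with a threshold of 0.05. CPM use TMM-scaled totals. The common coefficient of biological variation was 0.24. On data simulated for Dicretin against saline over 12910 genes, 97% of 4-fold and 56% of 2-fold changes were recovered. Every simulated gene had the common coefficient, and 100 genes were changed at each size. Of the genes left unchanged, 10 passed. In the livers the spread differed between genes and 36.7% of genes passed with Dicretin, so the share recovered there may differ. Pair ratios used a pseudocount of 0.5. Alternatives were DESeq2 1.42.0 size factors and its Wald test, upper quartile factors, limma-voom (limma 3.58.1), 2 other filters, the 2 groups alone, each library left out, Semaglutide 11 and Dicretin 14 left out, a length trend removed, and Acot1 and Acot2 summed, and a pseudocount of 1. From each list, up to 3 genes with the smallest p per comparison could be named, beside all members and the 3 genes most like each member that passed against saline. Ppara, and Acsl4 with Semaglutide and calorie restriction, were named outside that rule after their values were seen. A gene that the rule names is not reported here. The members, lists and alternatives were chosen with earlier results of these data known. The labels do not say whether the animals of a group were treated separately, so p-values measure the spread between these samples.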

Additional observations from a re-analysis of the deposited data

How the results depend on the processing

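Of 844 recomputed log2 fold changes of members, 787 kept their side of the threshold, 39 lost a call and 18 gained one. No value that passed in either fit changed direction. Among the 787, some values that passed in neither fit did change sign. All 162 recomputed pair ratios counted as unchanged, but with a library left out this could not fail. Leaving out a library of 4 always moves a group mean by less than the SD of that group. Groups of pairs that passed did not overlap, so their direction could not turn either. The exact test of 3 against 4 cannot go below 0.0571. How far the pair ratios depend on single libraries is therefore not decided by these fits. With the alternative pseudocount, which was judged by sign and threshold, no pair ratio changed. No paired analysis was possible because the groups share no animal numbers.

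Members passing between Dicretin and Semaglutide fell to 1 (2 as reported) with DESeq2 size factors, no filter, the 2 groups alone or Semaglutide 11 and Dicretin 14 left out, and between Dicretin and calorie restriction to 1 (2 as reported) with upper quartile factors, no filter, the 2 groups alone, those 2 libraries left out or the length trend removed. Between calorie restriction and saline 1 member passed with upper quartile factors or the 2 groups alone and 2 in the DESeq2 Wald test (0 as reported), between Semaglutide and calorie restriction 1 in the Wald test, the 2 groups alone or without those 2 libraries (0 as reported), and between Semaglutide and saline 1 with Acot1 and Acot2 summed (2 as reported). With each library left out in turn, the members passing were 2 to 5 for Dicretin and 0 to 1 for calorie restriction against saline, 0 to 1 for Dicretin against calorie restriction and 1 to 3 for Dicretin against Semaglutide.

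All genes passing were 982 in the Wald test and 841 with the length trend removed for Semaglutide against saline (539 as reported), 1528 in the Wald test and 2569 in the 2 groups alone for calorie restriction against saline (972), 1291 in the Wald test for Semaglutide against calorie restriction (790) and 2658 in the 2 groups alone for Dicretin against Semaglutide (4128). With a library left out they were 256 to 512, 502 to 849 and 445 to 963 in the first 3 of these comparisons. The cause of these shifts was not tested. In the simulated data, with 4 libraries a group, 56% of 2-fold changes were recovered, so smaller changes in these livers may be missed.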
